A study of Mus musculus with 4 samples.

Results

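The genes described here code for interleukin-10 and its relatives, for chains of their receptors and for receptor chains used by interleukin-4, interleukin-13 and interleukin-15. They were *Il10*, *Il19*, *Il20*, *Il10ra*, *Il10rb*, *Il20rb*, *Il4ra*, *Il13ra1*, *Il2rg* and *Il15ra*, chosen by gene symbol, and made up 10 of the 19938 genes measured. Each was read by 1 probe. Peritoneal macrophages, phagocytes of the abdominal cavity, came from C57BL/6 mice and were given 100 ng/ml LPS, a component of the outer membrane of Gram-negative bacteria that is sensed by Toll-like receptor 4 (n = 2), or PBS (n = 2), for 6 h according to the labels. RNA of each sample was hybridised in a single colour to its own Mouse OneArray Plus microarray. Each group has a biological replicate 1 and 2 by its labels, which do not tell whether separate mice or cultures were used, and the p-values given below reflect no more than the scatter among these 4 arrays, which may be technical.

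IL-10 is secreted by activated macrophages and acts on the same cells through a receptor of IL-10RA, which binds the cytokine, and IL-10RB, a chain shared with other members of the family. The signal passes through the kinases JAK1 and TYK2 to STAT3 and restrains the output of inflammatory cytokines. IL-19, IL-20 and IL-24 form a subfamily that signals through IL-20RB paired with a second chain. IL-4 binds IL-4RA, which pairs either with the common gamma chain, encoded by *Il2rg*, or with IL-13RA1, the chain that also binds IL-13, and both receptors activate STAT6. IL-15RA holds IL-15 on the cell surface and presents it to neighbouring lymphocytes that carry the gamma chain.

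With LPS, 4 of the 10 genes rose and 0 fell. These were *Il15ra*, *Il20rb*, *Il19* and *Il13ra1*. The test was limma's moderated test on quantile-normalised log2 signals, with Benjamini-Hochberg adjustment over all 19938 genes and a threshold of 0.05 for the adjusted p. Of all genes, 3.22% were called higher and 2.32% lower, beside 4 of 10 and 0 of 10 of the members. Without adjustment, 7 members were higher at p under 0.05 and 0 were lower, beside 2388 and 2769 of all 19938 genes. In size, 6 members were at least 2-fold higher with LPS and 0 were at least 2-fold lower, beside 5.34% and 9.19% of all genes. Both LPS arrays lay above both PBS arrays for 7 members and below them for 1, beside 32.2% and 27.5% of all genes. The median log2 fold change of the 10 members was 1.45, and that of all genes was 0.04. A probe counted as above background where its detection p was under 0.05, which held on all 4 arrays for 7 members and on no array for 2, beside 59.7% and 25.9% of all genes. The count of 4 depended on single arrays. With LPS replicate 1 left out 3 members passed, with LPS replicate 2 left out 4 passed, with PBS replicate 1 left out 2 passed, and with PBS replicate 2 left out 0 passed (5 at an unadjusted p under 0.05).

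**Figure D1:**
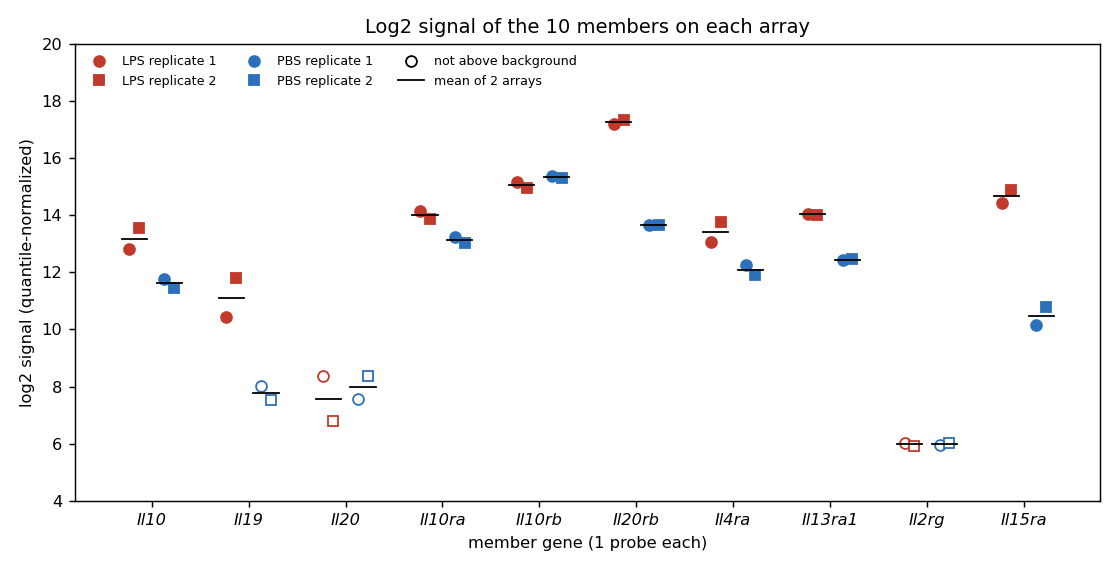
Quantile-normalised log2 signal (vertical axis) of each of the 10 genes (horizontal axis) on the 2 LPS arrays and the 2 PBS arrays, with a line at the mean of each group and open symbols where the probe was not above background. *Il15ra*, *Il20rb* and *Il13ra1* show both LPS arrays well above both PBS arrays, whereas *Il20* and *Il2rg* overlap and lie at background.

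The arrays themselves differed in brightness before normalisation. The median deposited signal was 683 and 1054 on LPS replicates 1 and 2, against 1026 and 1047 on PBS replicates 1 and 2. Probes above background made up 55.8% and 63.3% on the LPS arrays and 61.7% and 62.2% on the PBS arrays. After normalisation the correlation across genes was r = 0.972 between the LPS replicates and r = 0.983 between the PBS replicates, and it was r = 0.927 to 0.943 for an LPS array against a PBS array. Genes within an array are not independent, and these values are descriptions. With 2 arrays per group, an exact two-sided permutation test of a single gene could not go below p = 0.333.

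Among the ligands, *Il10* was clearly present in both groups. Its log2 signal was 12.83 and 13.54 on LPS replicates 1 and 2, against 11.78 and 11.45 on PBS replicates 1 and 2. Both LPS arrays exceeded both PBS arrays, and the LPS replicates differed from each other by 1.63-fold on the linear scale. The group means differed by 1.57 on the log2 scale (SE 0.31, 95% interval 0.77 to 2.37), a 2.97-fold higher signal with LPS, and the adjusted p of 0.0587 missed the threshold. Over 16 other ways of processing the data, the difference kept its sign and ranged from 1.22 to 1.89, and it passed in 1 of them, in which dim probes were left out before the test (adjusted p = 0.044). Of all genes, 2.82% had a larger rise. RNA came from whole cultures, so that more cells of a type and more RNA per cell cannot be told apart here.

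*Il19*, whose product belongs to the IL-20 subfamily, was measured with LPS only. Its log2 signal was 10.42 and 11.79 on the LPS arrays, both above background, against 8.02 and 7.52 on the PBS arrays, where the detection p was 0.365 and 0.515. The PBS values are therefore bounds. *Il19* was at least 4.29-fold higher with LPS, the mean of the LPS arrays being set against the lowest signal of any probe above background on each PBS array. This bound was not tested. The adjusted p of 0.0309 belongs to limma's fitted difference, which uses the PBS signals at background. The LPS replicates differed by 2.58-fold, and the bound became 6.9-fold when LPS replicate 1 was left out and 2.67-fold when LPS replicate 2 was left out. The call was lost without PBS replicate 1 (adjusted p = 0.128) and without PBS replicate 2 (adjusted p = 0.192), and also with scaling to the 75th percentile (adjusted p = 0.0522).

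*Il20* was not measurable on any array. Its probe gave 8.38 and 6.78 with LPS against 7.58 and 8.36 with PBS, all not above background, and the values of the groups overlapped. The adjusted p was 0.699, and a fitted difference of this gene, here or in the plots, sets signals at background against each other and is not a measured change.

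*Il10*, *Il19* and *Il20* are neighbours on mouse chromosome 1, together with *Il24*, in the order *Il24*, *Il20*, *Il19*, *Il10* and *Mapkapk2* in the RefSeq annotation of GRCm38.p6. *Mapkapk2*, which codes for the kinase MK2 that acts on the stability of cytokine transcripts, gave log2 signals of 16.45 and 15.99 with LPS against 14.26 and 13.80 with PBS and rose by 2.19 (SE 0.28, adjusted p = 0.0223). *Il24* gave 9.52 and 9.34 with LPS against 8.86 and 8.99 with PBS, a difference of 0.50 that did not pass (adjusted p = 0.213). The neighbours past the test were thus *Il19* and *Mapkapk2*, on either side of *Il10*.

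**Figure D2:**
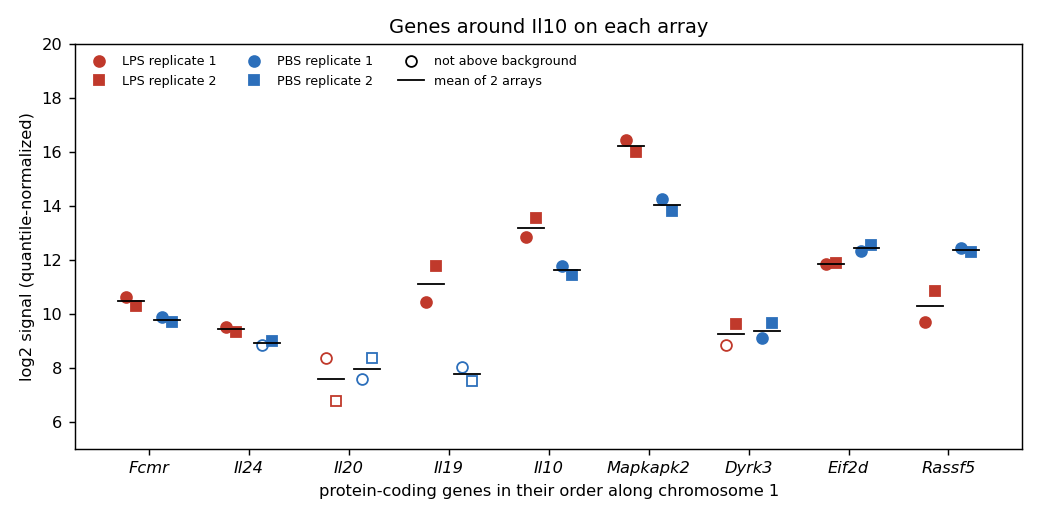
Quantile-normalised log2 signal (vertical axis) on the 2 LPS and the 2 PBS arrays for the protein-coding genes around *Il10*, in their order along chromosome 1 (horizontal axis, not to scale), with open symbols where the probe was not above background. *Il19* and *Mapkapk2* separate by treatment more clearly than *Il20* and *Il24*.

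The pattern of *Il10* over the 4 arrays was compared with those of 11902 other genes above background on every array. Each gene's mean over the PBS arrays was subtracted first, so that brightness did not count. The nearest genes were *Cyp7b1*, *Jag1* and *C3*, at Euclidean distances of 0.10, 0.21 and 0.23 on the log2 scale. Of these, *Jag1* passed the test (adjusted p = 0.0397), whereas *Cyp7b1* (adjusted p = 0.0548) and *C3* (adjusted p = 0.0521) did not.

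Of the receptor chains of the IL-10 family, *Il20rb* changed most. *Il20rb*, the chain that IL-19, IL-20 and IL-24 have in common, gave log2 signals of 17.20 and 17.35 with LPS against 13.66 and 13.66 with PBS. The deposited signals behind them were 147751 and 182755 with LPS against 15196 and 12532 with PBS. The groups stood far apart compared with the spread within them. *Il20rb* rose by 3.61 (SE 0.20, 95% interval 3.09 to 4.13, adjusted p = 0.00343), or 12.2-fold, and 0.592% of all genes had a larger rise. Without PBS replicate 2 the change was 3.68 and the adjusted p was 0.0604.

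Neither chain of the IL-10 receptor passed the test. *Il10ra*, the ligand-binding chain, gave 14.15 and 13.86 with LPS against 13.24 and 13.04 with PBS, with both LPS arrays above both PBS arrays. Its difference of 0.87 (SE 0.23, 95% interval 0.29 to 1.44), or 1.82-fold, had an adjusted p of 0.100. *Il10rb*, the shared chain, gave 15.17 and 14.94 with LPS against 15.38 and 15.32 with PBS. It was the only member with both LPS arrays below both PBS arrays, by 0.30 on average (log2 fold change -0.30, SE 0.21, 95% interval -0.84 to 0.24, adjusted p = 0.413), and scaling to the 75th percentile turned the difference to 0.02. Both 95% intervals lie below that of *Il20rb*, a difference that was not tested.

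The chains of the IL-4 and IL-13 receptors differed among themselves. *Il13ra1*, which joins IL-4RA in the receptor that responds to both cytokines, gave 14.04 and 14.02 with LPS against 12.43 and 12.47 with PBS. Both pairs of replicates were nearly identical. *Il13ra1* rose by 1.58 (SE 0.20, 95% interval 1.07 to 2.09, adjusted p = 0.0209), or 2.99-fold. The call was lost without LPS replicate 1 (adjusted p = 0.0731), PBS replicate 1 (adjusted p = 0.148) or PBS replicate 2 (adjusted p = 0.175).

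*Il4ra*, the chain that binds IL-4, gave 13.06 and 13.75 with LPS against 12.26 and 11.90 with PBS. All LPS values exceeded all PBS values, but the LPS replicates differed by 1.61-fold. The difference was 1.33 (SE 0.31, 95% interval 0.53 to 2.12, adjusted p = 0.0815), or 2.51-fold, and it passed in none of the 16 other ways of processing. *Il2rg*, the common gamma chain, gave 6.03 and 5.92 with LPS against 5.97 and 6.03 with PBS, and its detection p ranged from 0.937 to 0.998. Its probe was not above background on any array and carried a spot flag, of a meaning not given in the sources used here, on both LPS arrays, so nothing about the gamma chain can be read from it.

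*Il15ra* had the largest change of the 10. Its log2 signal was 14.44 and 14.89 with LPS against 10.15 and 10.77 with PBS. No LPS value came near a PBS value. *Il15ra* rose by 4.20 (SE 0.31, 95% interval 3.41 to 5.00, adjusted p = 0.00574), or 18.4-fold, and 0.426% of all genes had a larger rise. Without PBS replicate 2 the change was 4.61 and the adjusted p was 0.0541. *Il15*, which codes for its ligand, gave 16.70 and 16.60 with LPS against 13.24 and 13.54 with PBS and rose by 3.26 (SE 0.22, adjusted p = 0.00464), so that the transcripts of receptor chain and ligand were both higher with LPS.

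**Figure D3:**
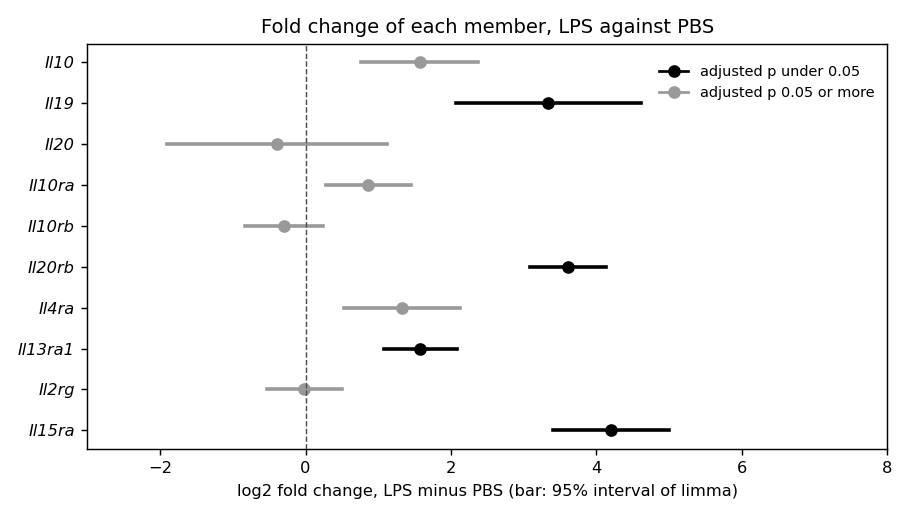
Log2 fold change of LPS over PBS (horizontal axis) for each of the 10 genes, with limma's 95% interval as a bar and black symbols for an adjusted p under 0.05. The intervals of *Il10*, *Il10ra* and *Il4ra* lie above 0 although their adjusted p was over 0.05, and the value drawn for *Il19* is the fitted one, 3.34, which depends on PBS signals at background.

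The promoters of the 4 members that rose are given to show what these genes have at their starts. RefSeq windows on GRCm38.p6, of 250 bases before to 50 bases after the start, were found for 7 members, and no window was used for *Il10*, *Il10ra* and *Il10rb*. They were searched on both strands for TGANTCA (AP-1), AANNGAAA (IRF), TTCNNNGAA (STAT), TTC and GAA set 4 bases apart (STAT6) and GGG and TTCC set 3 bases apart (NF-κB). Of 32851 windows of the same length in the table, 7.81% held the AP-1 letters, 23.9% the IRF letters, 8.3% the STAT letters, 6.95% the STAT6 letters and 5.56% the NF-κB letters. Matches stand in capitals, and no match overlapped another in the windows shown.
Il15ra (first start), chr2:11705043-11705342, plus strand: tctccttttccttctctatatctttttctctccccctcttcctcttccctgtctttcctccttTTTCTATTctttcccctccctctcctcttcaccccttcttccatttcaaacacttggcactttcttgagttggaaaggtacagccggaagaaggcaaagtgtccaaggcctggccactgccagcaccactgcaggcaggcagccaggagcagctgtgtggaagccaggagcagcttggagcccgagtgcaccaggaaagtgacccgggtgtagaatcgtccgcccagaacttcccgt
Il15ra (second start), chr2:11705462-11705761, plus strand: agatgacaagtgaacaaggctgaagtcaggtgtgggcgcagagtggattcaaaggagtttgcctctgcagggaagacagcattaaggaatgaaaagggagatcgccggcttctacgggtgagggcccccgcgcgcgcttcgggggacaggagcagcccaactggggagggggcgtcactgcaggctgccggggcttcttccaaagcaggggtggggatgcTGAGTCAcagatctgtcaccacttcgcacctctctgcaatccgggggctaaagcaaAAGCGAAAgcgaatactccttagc
Il19, chr1:130940066-130940365, minus strand: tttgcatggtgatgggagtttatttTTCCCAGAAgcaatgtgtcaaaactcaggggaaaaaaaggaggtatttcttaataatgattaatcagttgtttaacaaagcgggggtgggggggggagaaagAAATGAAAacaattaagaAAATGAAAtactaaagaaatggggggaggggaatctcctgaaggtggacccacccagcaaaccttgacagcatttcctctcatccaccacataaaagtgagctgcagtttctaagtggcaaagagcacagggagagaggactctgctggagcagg
Il20rb, chr9:100486424-100486723, minus strand: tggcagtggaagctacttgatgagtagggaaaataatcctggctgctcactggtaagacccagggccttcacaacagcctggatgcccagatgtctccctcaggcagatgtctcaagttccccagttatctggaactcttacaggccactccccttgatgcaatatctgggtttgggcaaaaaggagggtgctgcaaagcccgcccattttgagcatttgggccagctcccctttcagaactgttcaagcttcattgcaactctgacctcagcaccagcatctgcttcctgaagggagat
Il13ra1, chrX:36111858-36112157, plus strand: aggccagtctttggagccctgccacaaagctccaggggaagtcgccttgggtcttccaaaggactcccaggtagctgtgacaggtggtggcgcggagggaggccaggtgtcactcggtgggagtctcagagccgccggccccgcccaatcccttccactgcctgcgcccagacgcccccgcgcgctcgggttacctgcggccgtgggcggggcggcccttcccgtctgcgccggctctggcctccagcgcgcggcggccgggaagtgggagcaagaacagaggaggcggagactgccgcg

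The first window of *Il15ra* held an IRF match at bases 64 to 71, and the second held an AP-1 match at bases 221 to 227 and an IRF match at bases 277 to 284, counted from 1 at its 5′ end. That of *Il19* held a STAT match at bases 26 to 34 and IRF matches at bases 128 to 135 and 146 to 153. Those of *Il20rb* and *Il13ra1*, which also rose, held none of the letters searched and differed in base composition, with 52.0% and 71.0% G or C. Members that did not pass the test also held matches. *Il20* had an IRF and a STAT6 match, *Il2rg* an IRF match and *Il4ra* an NF-κB match. A match is a description of the letters and not a measured site. None of the motifs searched was found at all 4 genes that rose.

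The rest of the IL-10 family showed no change past the test. Of 5 measured genes outside the members, 0 were higher and 0 lower by limma, and 0 had an unadjusted p under 0.05 in either direction. Their probes were dim, with 2 above background on all 4 arrays and 1, *Ifnlr1*, on none. Group means ran from 8.31 to 10.05, where the lowest signal above background was 8.90 to 9.43 by array. *Il20ra* and *Il22ra1*, chains that pair with IL-20RB, had log2 fold changes of 0.41 (95% interval -0.20 to 1.02, adjusted p = 0.332) and 0.34 (95% interval -0.18 to 0.86, adjusted p = 0.348). The other genes of the list had no difference past the test either. Among 6 measured ligands of the gamma chain and IL-13 systems, 1 was higher (*Il15*) and 0 were lower. By its brightest probe, *Il7* was 1.14 higher without passing (adjusted p = 0.0538). Other probes of *Il7*, each above background on 2 arrays, gave 1.27 and 0.29. Of the 6 partner chains of these receptors, 0 passed in either direction, and before adjustment 1 was higher and 1 lower at p under 0.05, the lower one being *Il7r* (log2 fold change -1.03, adjusted p = 0.144). The list medians were 0.41, 0.10 and 0.10, beside 0.04 over all genes.

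Downstream of the receptors, 1 of 9 kinases and STATs rose and 0 fell. The one that rose was *Jak2*, a kinase of other cytokine receptors than that of IL-10, with a log2 fold change of 3.58 (SE 0.22, adjusted p = 0.00429). *Jak1* (0.10, adjusted p = 0.780) and *Tyk2* (0.45, adjusted p = 0.341), the kinases at the IL-10 receptor, did not pass. *Stat3* (0.64, adjusted p = 0.346) and *Stat6* (0.27, adjusted p = 0.441), which carry the IL-10 signal and the IL-4 and IL-13 signal, did not pass either. The median of the list was 0.45. The calls of *Il15* and *Jak2* were each lost without PBS replicate 2.

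Of 16 genes known to be induced by IL-10 in macrophages, 8 rose and 1 fell, with a median log2 fold change of 1.56. The largest rises were those of *Socs3*, a feedback inhibitor of cytokine signalling (4.30), *Nfkbiz*, a nuclear regulator of NF-κB (3.62), *Il1rn*, the IL-1 receptor antagonist (3.03), and *Fcgr1*, the high-affinity receptor for IgG (2.33). Their adjusted p ranged from 0.00464 to 0.0348. The gene that fell was *Cd163*, a scavenger receptor for haemoglobin, with log2 means of 7.01 with LPS and 8.74 with PBS (adjusted p = 0.0299), but its probe was above background on no array. With 1 array left out, the count of rises was 3 (LPS replicate 1), 3 (LPS replicate 2), 3 (PBS replicate 1) and 0 (PBS replicate 2). It was 5 with scaling to the 75th percentile and 3 in the second deposited table, and the fall of *Cd163* was lost without any 1 of the arrays.

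Of 24 measured genes known to be induced by IL-4 or IL-13, 5 rose and 0 fell, and the list median of 0.03 was close to that of all genes. The 5 were *Ch25h*, which makes an oxysterol (5.69, adjusted p = 0.0170), *Ccl22* (4.60, adjusted p = 0.00729), *Socs1* (3.86, adjusted p = 0.00824), *Ccl17* (at least 4.23-fold) and *Tgm2*, a transglutaminase (1.28, adjusted p = 0.0349). The adjusted p of *Ccl17*, 0.0248, belongs to the fitted difference, with PBS signals at background, and not to the bound. CCL17 and CCL22 are chemokines that share the receptor CCR4, and SOCS1 is a feedback inhibitor of cytokine signalling. Genes often used to recognise macrophages exposed to IL-4 gave log2 fold changes of -1.44 for *Arg1* (adjusted p = 0.0523), -0.09 for *Mrc1* (adjusted p = 0.896) and -0.30 for *Retnla* (adjusted p = 0.912). *Retnla* varied widely within both groups, with SDs of 2.38 with LPS and 2.42 with PBS on the log2 scale. This spread followed the replicate number. The signal was 12.71 with LPS and 13.05 with PBS in replicate 1, against 9.35 and 9.62 in replicate 2. Leaving out LPS replicate 1 gave 3 rises, LPS replicate 2 gave 4, PBS replicate 1 gave 1 and PBS replicate 2 gave 0, and leaving out LPS replicate 2 gave 1 fall.

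Of 23 regulators of *Il10* transcription and mRNA, 6 rose and 1 fell, with a median of 0.44. The largest rises were those of *Rel*, an NF-κB subunit (2.59, adjusted p = 0.0146), *Mapkapk2* (2.19), *Zfp36*, whose product tristetraprolin destabilises cytokine mRNA (2.00, adjusted p = 0.0209), and *Map3k8*, the kinase TPL2 that feeds the ERK pathway (1.68, adjusted p = 0.0298). *Bhlhe40*, a transcription factor, fell by 1.30 with an adjusted p that rounds to the threshold of 0.05, and its call was lost under each other scaling between arrays. *Zfp36* is counted among the genes induced by IL-10 as well. Leaving out LPS replicate 1 gave 2 rises, LPS replicate 2 gave 4, PBS replicate 1 gave 0 and PBS replicate 2 gave 0, and there were 3 with scaling to the 75th percentile and 2 in the second deposited table. None of these counts was tested as a set, and many genes of these lists are known to respond to LPS directly.

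**Figure D4:**
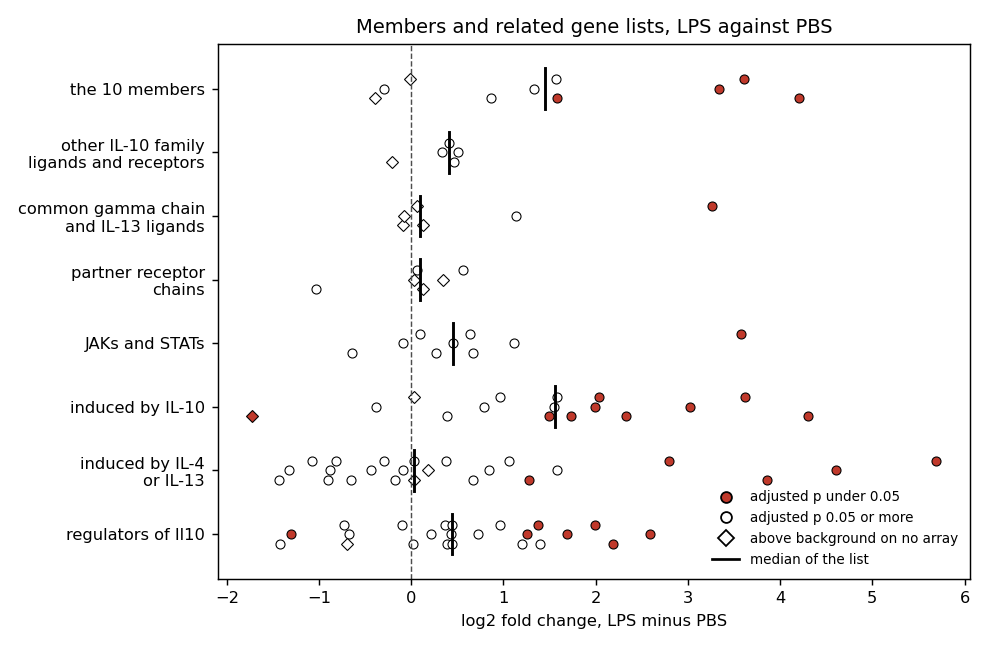
Log2 fold change of LPS over PBS (horizontal axis) of every measured gene in each list (rows), with filled symbols for an adjusted p under 0.05, diamonds for probes above background on no array and a bar at each list median. The genes induced by IL-10 have the highest median, 1.56, whereas the genes induced by IL-4 or IL-13 spread to both sides of 0.

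The label of peritoneal macrophages was checked with markers. Of 11 measured macrophage markers, 9 were above background on all 4 arrays, *Gata6* and *Icam2* of resident peritoneal macrophages among them. Of the 11, 2 rose (*Cd14* and *Fcgr1*) and 1 was called lower (*Cd163*), with a probe above background on no array. Their summed signal was 997400 and 811900 with LPS against 879700 and 726900 with PBS. *Timd4*, on the same list, was above background on both LPS arrays but on only 1 PBS array. It gave log2 signals of 12.38 and 11.34 with LPS against 9.80 and 8.83 with PBS (adjusted p = 0.0538). Markers of other cells were also present. Of 8 B cell markers, 4 were above background on all arrays and 4 on none, *Ms4a1* among those on none, 1 fell (*Cd22*), and the sum was 10950 and 10070 with LPS against 19500 and 17520 with PBS. Of 8 T cell markers, 4 were above background on all arrays and 2 on none (*Cd3d* and *Cd4*), and 1 rose (*Lck*, at least 11.5-fold). The sum was 13310 and 17100 with LPS against 12920 and 11800 with PBS. *Lck*, at log2 signals of 12.30 and 12.75 with LPS against 8.89 and 8.93 with PBS, held a large part of the LPS sums. The median log2 fold change of the T cell list was 0.09, so its sums do not describe the list as a whole. Of 5 NK cell markers, 3 were above background on none, including *Ncr1*, and 0 passed, with sums of 15610 and 14880 with LPS against 8062 and 5864 with PBS. Most of these sums came from *Eomes*, with log2 signals of 13.81 and 13.76 with LPS against 12.77 and 12.28 with PBS (adjusted p = 0.0581). The median log2 fold change of the NK list was 0.06. Mesothelial markers, 0 of 5 past the test, summed to 17590 and 58560 with LPS against 24960 and 66380 with PBS. The sums were higher in replicate 2 of both groups, as were *Upk3b*, *Lrrn4* and *Wt1*. *Msln* and *Krt19* were lower in replicate 2 than in replicate 1 with PBS. Mast cell, eosinophil and neutrophil markers had 0 calls among 6, 4 and 5 measured, of which 3, 3 and 2 were above background on all 4 arrays. The part of any of these cells in the values of the 10 genes was not tested.

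The 4 members that rose kept their direction in all 16 other fits, in which the processing was changed or 1 array left out. The log2 fold change ranged over them from 3.87 to 4.61 for *Il15ra*, from 3.51 to 3.92 for *Il20rb* and from 1.53 to 1.69 for *Il13ra1*. For *Il19*, with PBS signals at background, only the bound is given, which was 2.67-fold to 6.9-fold with 1 array left out. *Il15ra* passed the test in 14 of these fits, *Il20rb* in 14, *Il13ra1* in 11 and *Il19* in 9. *Il10ra* (0.70 to 1.01) and *Il4ra* (0.98 to 1.63) also stayed above 0 throughout and passed in none.

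**Figure D5:**
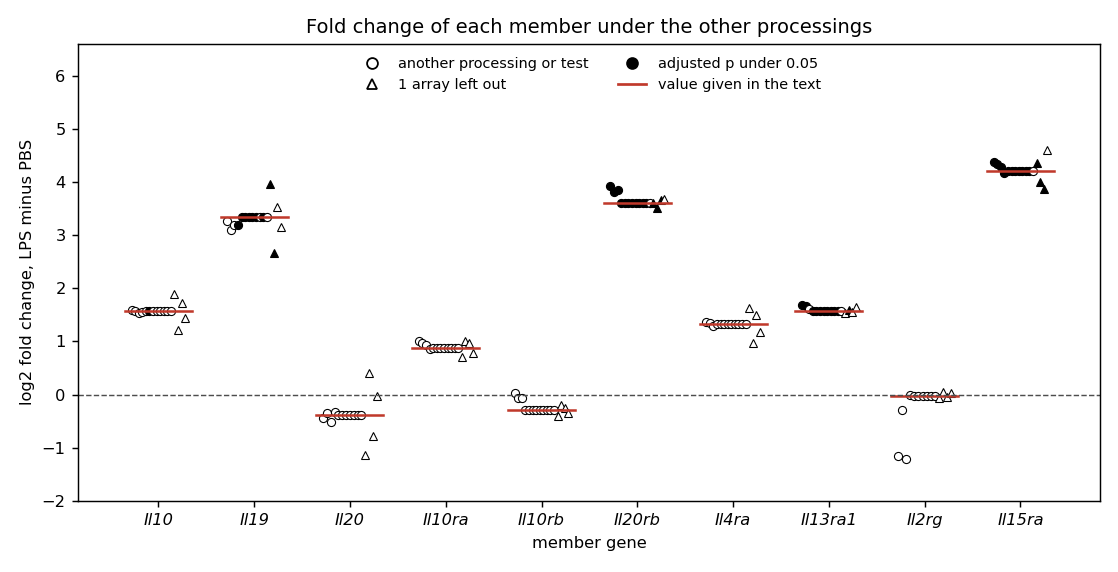
Log2 fold change of LPS over PBS (vertical axis) of each gene (horizontal axis) under each other processing or test (circles) and with 1 array left out (triangles), filled where the adjusted p was under 0.05, with a red line at the value given in the text. *Il15ra* and *Il20rb* are filled in most fits, whereas *Il20*, *Il10rb* and *Il2rg* scatter around 0 or below it.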

How the data were processed

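Total RNA of 4 samples, 2 with LPS and 2 with PBS, was labelled with Cy5. In the deposited table the authors give an intensity, a spot flag and a detection p-value for each probe on each array, unscaled between arrays. Image reading and background removal were not given in the sources used here. Since LPS replicate 1 has 60 values of 0 or less, down to -18, the intensity was taken as background-subtracted. The authors' second deposited table holds the same intensity times 1 constant per array (1.29 and 0.959 for LPS, 0.869 and 0.972 for PBS) and was used as an alternative. The deposited detection p-value served only to call a probe above background.

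Of 26423 probes, 22815 had 1 symbol, 246 had several and 3362 had none, and the last 2 kinds were left unnamed. Of 19962 symbols, 17486 were current in RefSeq, 1906 were updated and 570 were kept. Signals were quantile-normalised and converted to log2, the brightest probe stood for a gene, and LPS was compared with PBS in limma 3.58.1 (lmFit, eBayes; R 4.3.3; residual df 2, prior df 3.11), which was tested on simulated data. The number of arrays limits the precision. The methods name no test for the arrays in particular. A probe below background on every array of a group was given a bound.

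The genes and lists were chosen with earlier results of these data known. Named were all members, up to 4 genes past the test per list, markers of other cells above background, the 3 genes nearest to *Il10* and neighbouring members. Other genes were named after their values were seen. Alternatives covered background correction, scaling, the second table, filters on dim or flagged probes, several probes per gene, the variance model, the replicate number, a t-test and leaving out each array.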

Additional observations from a re-analysis of the deposited data

How the results depend on the processing

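Beside 1104 genes past the test, 529 passed with scaling to the 75th percentile, 438 in the second deposited table, 0 with a t-test, which the study's general statistics section names for comparing groups, after Benjamini-Hochberg (3719 at an unadjusted p under 0.05) and 40 to 1056 with 1 array left out. The share called higher was 58.2%, against 75.2% with scaling to the 75th percentile, 74.7% in the second table, 67.3% with cyclic loess and 39.3% to 97.5% with 1 array left out. Of the 10 genes described, 4 passed, 2 did so in the second table, 0 with the t-test (5 unadjusted) and 0 to 4 with 1 array left out. Without PBS replicate 2 the count was 0 by limma, with 5 at an unadjusted p under 0.05. Tested as probes among 26423, 4 passed, 2 with scaling to the 75th percentile, 2 in the second table and 0 to 3 with 1 array left out. Of all pathway list genes 22 passed, 14 with scaling to the 75th percentile, 11 in the second table and 0 to 14 with 1 array left out. The cause of these differences was not tested. Fits with 1 array left out also had fewer arrays, which was not told apart from the choice of array.

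Of 157 values of the 10 genes over 16 other fits, 136 kept direction and side of the threshold, 16 lost the call, 1 gained it and 4 changed sign. Those 4 were *Il10rb* at 0.02 with scaling to the 75th percentile, *Il20* at 0.40 and *Il2rg* at 0.04 without LPS replicate 2, and *Il2rg* at 0.02 without PBS replicate 2. With 1 array left out, *Il20* ranged from -1.13 to 0.40 and *Il2rg* from -0.06 to 0.04, and *Il2rg* was at -1.15 with scaling to the 75th percentile and -1.22 in the second table. *Il20* and *Il2rg* were not above background on any array, so these are fitted values and not measured changes. Of the 10 genes, 6 were at 2-fold or more in either direction. The count was 8 with scaling to the 75th percentile, 7 in the second table, 7 without LPS replicate 1 and 6 in each other fit. The counts of 7 and 8 take in the negative fitted values of *Il2rg* or *Il20* given above. With scaling to the 75th percentile, *Il10ra* at 1.01 was added as well. A detection p under 0.01 left 7 above background on all arrays.

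The groups share replicate numbers, but the labels do not say that a number marks a shared mouse or day, and 2 pairs are too few to tell. Deviations of samples of the same number correlated at 0.239 across genes. With the replicate number as a block, 1165 genes, 3 of the 10 members and 3 member probes passed, and *Il19* (adjusted p = 0.0509) was the 1 member whose call changed.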

Other observations

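Farther along the *Il10* neighbourhood, 2 genes chosen after their values were seen had both LPS arrays on 1 side of both PBS arrays without passing the test. *Rassf5*, which codes for a Ras effector of leukocyte adhesion, gave log2 signals of 9.72 and 10.86 with LPS against 12.42 and 12.31 with PBS, a log2 fold change of -2.08 (adjusted p = 0.0577). *Ikbke*, which codes for a kinase of the interferon response, gave 16.64 and 16.28 with LPS against 15.71 and 15.59 with PBS, a log2 fold change of 0.81 (adjusted p = 0.119).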
